A study of Arabidopsis thaliana with 18 samples.

Results

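PAD3 (AT3G26830) and CYP71A13 (AT2G30770), enzymes of camalexin synthesis, and CYP79F1 (AT1G16410) and MAM3 (AT5G23020), enzymes of methionine-derived glucosinolate synthesis, were followed across 6 groups of Arabidopsis thaliana seedlings. They were taken by locus and make up 4 of the 6740 genes in the deposited table. That table lists only genes that the authors called in at least 1 treated against control comparison, so the presence of all 4 is a condition of being listed and not a finding.

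Camalexin is an indole phytoalexin, a toxin made from tryptophan when tissue is attacked by microbes or stressed. CYP79B enzymes turn tryptophan into indole-3-acetaldoxime, CYP71A13 and its neighbour CYP71A12 turn that into indole-3-acetonitrile, glutathione is attached, and PAD3 (also called CYP71B15) closes the ring and completes camalexin. Glucosinolates are stored thioglucosides that myrosinases break down when tissue is damaged. Those derived from methionine begin with side-chain lengthening, in which MAM3 is a methylthioalkylmalate synthase, and CYP79F1 then converts the lengthened amino acid into an aldoxime, the entry into the core structure.

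Whole 9-day-old seedlings of the Col-0 wild type and of the pyl duodecuple line were placed on filter paper for 24 h. The duodecuple line, named pyl112458 379101112 in the series title, carries mutations in 12 genes of the PYR/PYL family, the intracellular receptors of the stress hormone abscisic acid (ABA), and that family has further members that the name does not include. Each genotype was kept on 1/2 MS medium (control), on 100 µM ABA, or on 300 mM mannitol, a sugar alcohol that withdraws water. Each of these 6 groups had 3 samples, 18 in all, and the labels do not say whether the samples of a group were separate plants or cultures. RNA was sequenced, and the table gives 1 level per gene and group, in FPKM, a unit that divides the fragments of a gene by its transcript length and by the size of the library, with the authors' log2 ratio and yes or no call for treated over control in each genotype.

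The values of the 18 libraries were not analysed here, so no level below carries a replicate error, and whether neighbours in any order of levels differ beyond their spread cannot be said. Sequencing depth is unknown. A gene is said to have risen or fallen only where the authors' deposited table calls it; genotypes and the treatments themselves were compared as untested ratios of group levels, counted at 2-fold where the higher group reached 5 FPKM. Of the 12 receptor genes 5 are listed, with a summed level of 671 FPKM in wild-type and 380 FPKM in duodecuple control seedlings; a mutated gene can still be transcribed, so this sum does not check the labels. Leaf and photosynthesis markers (7 of 7 listed, none at 0 in any group) summed to 14819.9, 10008 and 2817 FPKM in wild-type control, ABA and mannitol seedlings and to 13810.3, 14698 and 8505 FPKM in the duodecuple. In whole seedlings, fewer cells of a type and less RNA per cell cannot be told apart.

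PAD3 and CYP71A13 were low in control and ABA seedlings of both genotypes and rose strongly in mannitol, to higher levels in the duodecuple than in the wild type. PAD3 stood at 12.3 FPKM in wild-type control, 7.57 in wild-type ABA and 89.5 in wild-type mannitol seedlings, and at 5.69, 4.20 and 192 FPKM in duodecuple control, ABA and mannitol seedlings. Its highest level was thus in the duodecuple on mannitol, followed by the wild type on mannitol, wild-type control, wild-type ABA, duodecuple control and duodecuple ABA. CYP71A13 was present at 1.49, 0.853 and 27.6 FPKM in the same order of wild-type groups and at 1.80, 0.638 and 54.8 FPKM in the duodecuple groups. Both mannitol groups lay far above the other 4, all of which were below 2 FPKM for this gene.

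**Figure D1:**
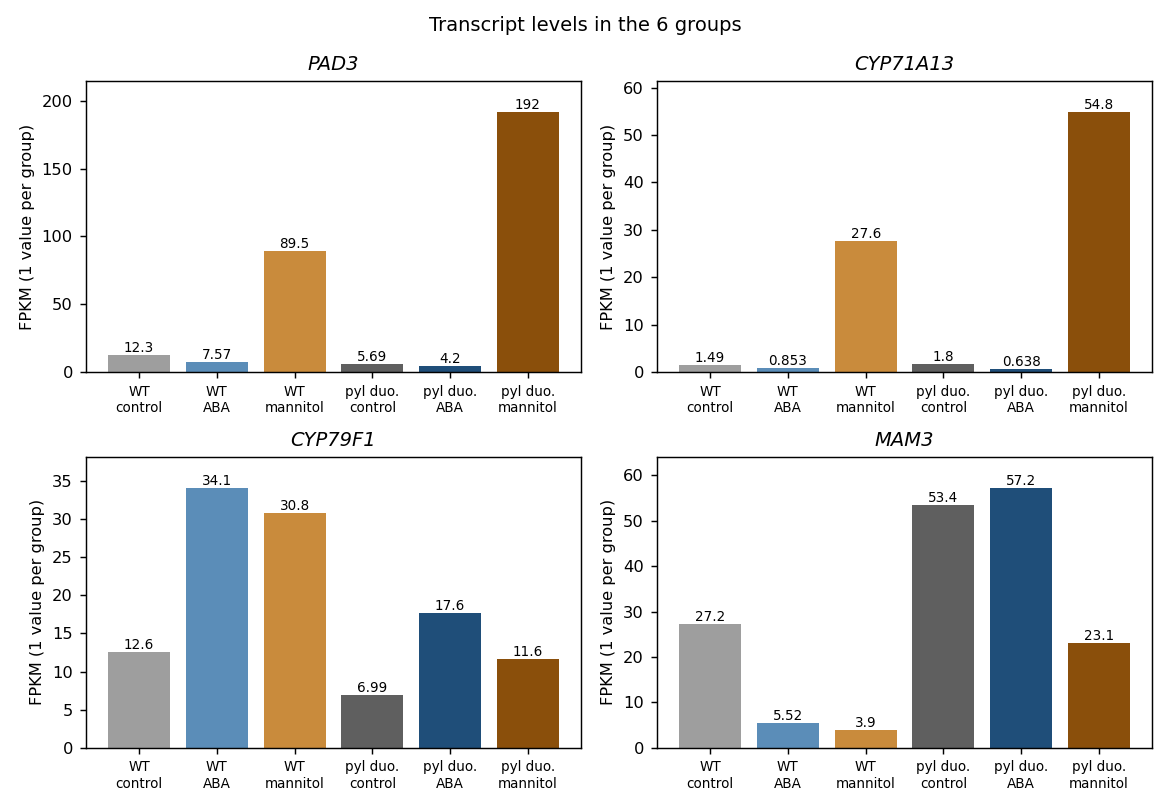
Bars give the level of PAD3, CYP71A13, CYP79F1 and MAM3 in FPKM (vertical axis from 0, its own scale in each panel) in the 6 groups, wild type (WT) and pyl duodecuple (pyl duo.) on control medium, ABA or mannitol. Each bar is the authors' 1 value per group and has no error bar. PAD3 reached 89.5 and 192 FPKM in the 2 mannitol groups, while MAM3 was lowest, at 5.52 and 3.90 FPKM, in treated wild-type seedlings.

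By the authors' deposited table PAD3 rose 7.30-fold in wild-type mannitol seedlings (log2 ratio 2.87) and 33.6-fold in duodecuple mannitol seedlings (5.07). CYP71A13 rose 18.6-fold (4.21) and 30.5-fold (4.93). In the duodecuple these ratios ranked 80 and 86 from the highest among the 6732 listed genes with a ratio. The median log2 ratio of all listed genes was -0.20 in wild-type and -0.29 in duodecuple mannitol seedlings. All 4 of the genes described here were called in wild-type mannitol, 3 higher and 1 lower, where 68.4% of listed genes were called (33.1% higher and 35.3% lower). In duodecuple mannitol 3 of 4 were called, PAD3 and CYP71A13 higher and MAM3 lower, where 50.5% of listed genes were (23.3% higher and 27.2% lower). Calls this common in the table make the counts of calls uninformative about the 4 genes.

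ABA did not raise either camalexin gene. The log2 ratio of PAD3 was -0.70 in wild-type and -0.44 in duodecuple seedlings, neither of them called. CYP71A13 had -0.80 in the wild type, not called, and fell 2.82-fold in the duodecuple (log2 ratio -1.50, called), from 1.80 to 0.638 FPKM. At levels this low the ratio depends on the smallest values, and with 1 FPKM added to both groups it was -0.77. Mannitol seedlings had 11.8-fold more PAD3 and 32.4-fold more CYP71A13 than ABA seedlings in the wild type, and 45.6-fold and 85.9-fold more in the duodecuple. In this untested comparison 2 of the 4 genes were past 2-fold in the wild type, where 29.9% of listed genes were, and 3 of 4, with MAM3 2.47-fold lower on mannitol, in the duodecuple, where 32.4% were. The ABA and mannitol ratios of a genotype share 1 control group.

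The 5 other listed genes of camalexin synthesis were also called higher in mannitol in both genotypes. Of 9 synthesis genes 7 are listed, PAD3 and CYP71A13 among them, and all 7 were called higher, where 33.1% of listed genes were in the wild type and 23.3% in the duodecuple. The 7 had a median log2 ratio of 2.87 in wild-type and 3.35 in duodecuple seedlings, against -0.20 and -0.29 over all listed genes, and the wild-type median is the value of PAD3 itself. CYP71A12, which can make the same nitrile, rose 22.0-fold from 1.62 to 35.6 FPKM in the wild type and 14.9-fold from 4.60 to 68.6 FPKM in the duodecuple. GSTF6, a glutathione transferase that attaches glutathione to the nitrile, rose 11.9-fold from 138 to 1641 FPKM and 10.2-fold from 267 to 2715 FPKM. CYP79B2, which feeds both camalexin and indole glucosinolates, rose less, from 56.9 to 118 FPKM and from 44.6 to 101 FPKM.

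Under ABA the same list had 2 genes called higher and 0 lower in the wild type and 0 higher and 2 lower in the duodecuple. Of all listed genes 17.6% were called higher and 27.3% lower in wild-type ABA, and 2.49% and 2.79% in duodecuple ABA. Those higher in wild-type ABA were GSTU4, 2.28-fold, and GSTF6, 2.097-fold, both glutathione transferases, and those lower in duodecuple ABA were CYP71A12 and CYP71A13. The list medians were -0.31 and -0.44, against -0.31 and -0.03 over all listed genes.

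Tryptophan supply, the precursor branch, was called higher in mannitol for 5 of its 7 listed genes in the wild type (median log2 ratio 1.22) and for all 7 in the duodecuple (1.59), and for 0 of 7 in either direction under ABA in both genotypes. The shares of all listed genes called higher in mannitol were 33.1% and 23.3%, and those called under ABA in either direction 44.9% and 5.28%. ASA1, the anthranilate synthase subunit at the branch point, rose from 23.8 to 67.4 FPKM in the wild type and from 28.2 to 104 FPKM in the duodecuple. TSB2, a tryptophan synthase beta subunit, rose 3.45-fold and 3.76-fold. Of 6 genes for regulators and export, 3 are listed. WRKY33, the transcription factor known to bind the PAD3 and CYP71A13 promoters, stood at 20.4, 15.4 and 80.4 FPKM in wild-type control, ABA and mannitol and at 37.7, 29.5 and 96.7 FPKM in the duodecuple; it was called higher in both mannitol comparisons (3.94-fold and 2.57-fold) and not called under ABA. ANAC042, a NAC factor required for camalexin induction, rose 9.79-fold and 5.13-fold in mannitol and was called lower under ABA in both genotypes (log2 ratios -1.08 and -1.16). ABCG36, a membrane transporter that exports camalexin, was not called in mannitol (0.42 and 0.96) and was called lower in wild-type ABA (-1.02). Leaf marker sums moved in the opposite direction, from 14819.9 to 2817 FPKM in wild-type and from 13810.3 to 8505 FPKM in duodecuple mannitol seedlings, and their part in these results was not tested.

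**Figure D2:**
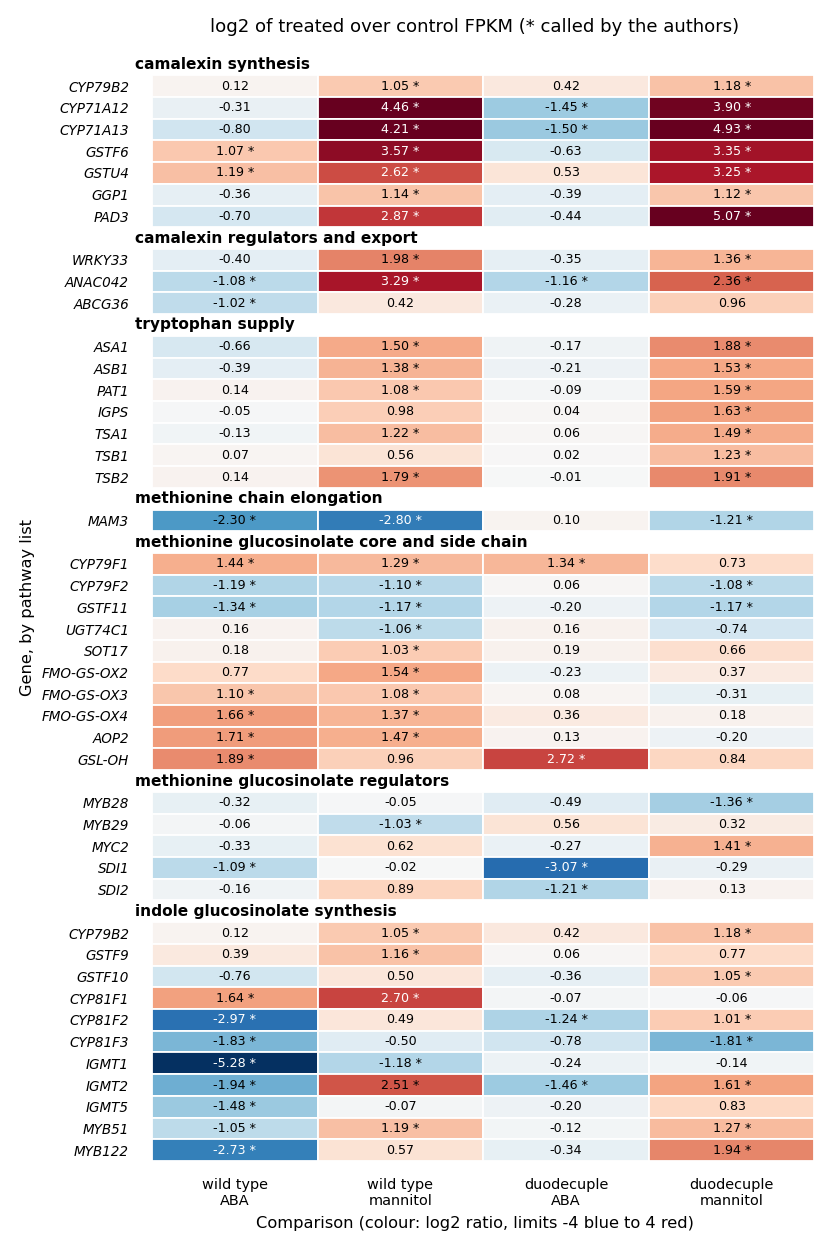
Each row is a listed gene of the camalexin, tryptophan or glucosinolate lists and each column a treated over control comparison; cells print the log2 ratio of FPKM, with colour from blue (-4 or below) to red (4 or above) and an asterisk where the authors called the gene. The camalexin synthesis rows are red with asterisks in both mannitol columns, and MAM3 is blue in both wild-type columns and near 0 (0.10) in duodecuple ABA.

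Response to mannitol differed between genotypes more for PAD3 than for CYP71A13. The log2 ratio of PAD3 was 2.204 higher in the duodecuple (a 4.61-fold larger rise) and that of CYP71A13 0.72 higher (1.64-fold), against a median difference of 0.00 over all listed genes. PAD3 differed both in its start and its end, being 2.15-fold lower in duodecuple control seedlings (log2 ratio of duodecuple over wild type -1.11) and 2.14-fold higher in duodecuple mannitol seedlings (1.097). With 1 FPKM added to each level the control difference became -0.99 and so lay just inside 2-fold. CYP71A13 stood 1.98-fold higher in duodecuple mannitol seedlings, just under the limit, and 1.21-fold higher in control. PAD3 was the 1 of 4 genes past 2-fold between the genotypes in control seedlings, where 5.95% of listed genes were. All these genotype differences are untested.

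The ratio of PAD3 to CYP71A13, both per kilobase, was 8.24 in wild-type control, 8.87 in wild-type ABA and 3.24 in wild-type mannitol seedlings, and 3.17, 6.58 and 3.495 in the duodecuple. PAD3 was thus above CYP71A13 in every group, by a factor that was similar in the 2 mannitol groups and in duodecuple control. Outside mannitol the ratios rest on CYP71A13 levels from 0.638 to 1.80 FPKM. Against CYP71A13 and CYP71A12 together PAD3 was not higher in duodecuple control, where the pair summed to 6.399 FPKM and PAD3 stood at 5.69 FPKM. CYP71A12 exceeded CYP71A13 by 1.09-fold, 1.53-fold and 1.29-fold in the wild-type groups and by 2.56-fold, 2.65-fold and 1.25-fold in the duodecuple groups.

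CYP71A13 lies at chr2:13109909-13111988 on the minus strand (TAIR10.1) with 4 coding exons, and CYP71A12 lies 8537 bases away on the same strand. Their coding sequences are 90.4% identical, and the longest run shared without a mismatch is 59 bases, here read 5′ to 3′ along the coding strand of CYP71A13 (chr2:13111140-13111198, minus strand; RefSeq). It is printed because a read inside it belongs equally to either gene, so the split of reads between the pair is uncertain.
CYP71A13 and CYP71A12, shared run: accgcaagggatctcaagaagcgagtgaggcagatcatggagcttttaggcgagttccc
Read together, the pair summed to 3.11, 2.16 and 63.3 FPKM in wild-type control, ABA and mannitol seedlings and to 6.399, 2.33 and 123 FPKM in the duodecuple, so that the mannitol groups stood apart whichever way the reads were split. PAD3 and CYP71A13 share 62.6% of aligned coding bases and no run above 15 bases.

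PAD3 lies at chr3:9887917-9889791 on the plus strand (TAIR10.1) with 2 coding exons. WRKY factors bind W-boxes, searched here on both strands, as TTGACT or with a final C as TTGACC, in the 1000 bases before the annotated gene start. PAD3 held 3 copies of TTGACT, 980, 520 and 348 bases before that start, and none of TTGACC. The 3 stretches are shown 5′ to 3′ on the plus strand (RefSeq) with the W-box in capitals, since this gene rose together with WRKY33 in mannitol.
PAD3, chr3:9886925-9886954: ccgctaaaattgTTGACTaaaaaatatatt
PAD3, chr3:9887385-9887414: ttggaatagcctTTGACTcaacaactttaa
PAD3, chr3:9887557-9887586: gatacaaaaagaTTGACTagtgtttaagtt
TTGACT occurs in 50.6% of 27436 upstream windows of this length in the genome and either W-box in 67.3%, so a match is common. Neither word is in the CYP71A13 or the CYP71A12 window. ACGTG, the core of ABA-responsive elements, was found once before CYP71A13, 774 bases before its start on the opposite strand of the gene, where it reads CACGT in capitals in the stretch cgtttgatgaatCACGTcgttctttttata (chr2:13112745-13112774, shown on the coding strand, minus). This core is in 54.4% of windows. These are matches of letters and were not examined as binding sites.

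CYP79F1, which makes the aldoxime of chain-lengthened methionine, rose in ABA in both genotypes and in mannitol in the wild type. It stood at 12.6 FPKM in wild-type control, 34.1 in ABA and 30.8 in mannitol seedlings, and at 6.99, 17.6 and 11.6 FPKM in the duodecuple. In each genotype ABA gave the highest level and control medium the lowest, and each duodecuple group was below the wild-type group on the same medium.

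The authors' deposited table calls CYP79F1 higher in wild-type ABA (2.71-fold, log2 ratio 1.44), in wild-type mannitol (2.45-fold, 1.29) and in duodecuple ABA (2.53-fold, 1.34), and not in duodecuple mannitol (1.66-fold, 0.73). Its ABA ratio differed little between genotypes, by -0.10 on the log2 scale (duodecuple minus wild type), where the median listed gene differed by 0.29. Few listed genes responded to ABA in the duodecuple: 5.28% were called (2.49% higher and 2.79% lower), and CYP79F1 ranked 191 from the highest among 6721. The calls there took in 2 of the 4 genes, CYP79F1 and CYP71A13, and in wild-type ABA, where 44.9% of listed genes were called (17.6% higher and 27.3% lower), also 2 of 4, CYP79F1 and MAM3. Between genotypes CYP79F1 was 1.80-fold lower in duodecuple control, 1.93-fold lower in ABA and 2.65-fold lower in mannitol seedlings (untested).

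CYP79F2, the neighbouring gene of the same subfamily, which acts on long-chain substrates, went the other way in the wild type. Its levels were 10.9, 4.79 and 5.09 FPKM in wild-type control, ABA and mannitol seedlings and 21.7, 22.6 and 10.3 FPKM in the duodecuple. It was called lower in wild-type ABA (2.28-fold), wild-type mannitol (2.15-fold) and duodecuple mannitol (2.11-fold), and had a log2 ratio of 0.06, not called, in duodecuple ABA. The ratio of CYP79F1 to CYP79F2 was 1.15, 7.12 and 6.04 in the wild-type groups and 0.321, 0.779 and 1.13 in the duodecuple groups. Thus CYP79F1 was the more abundant of the pair in treated wild-type seedlings, and CYP79F2 was in duodecuple control and ABA seedlings. Their sum ranged less, between 21.9 FPKM in duodecuple mannitol and 40.3 FPKM in duodecuple ABA seedlings.

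**Figure D3:**
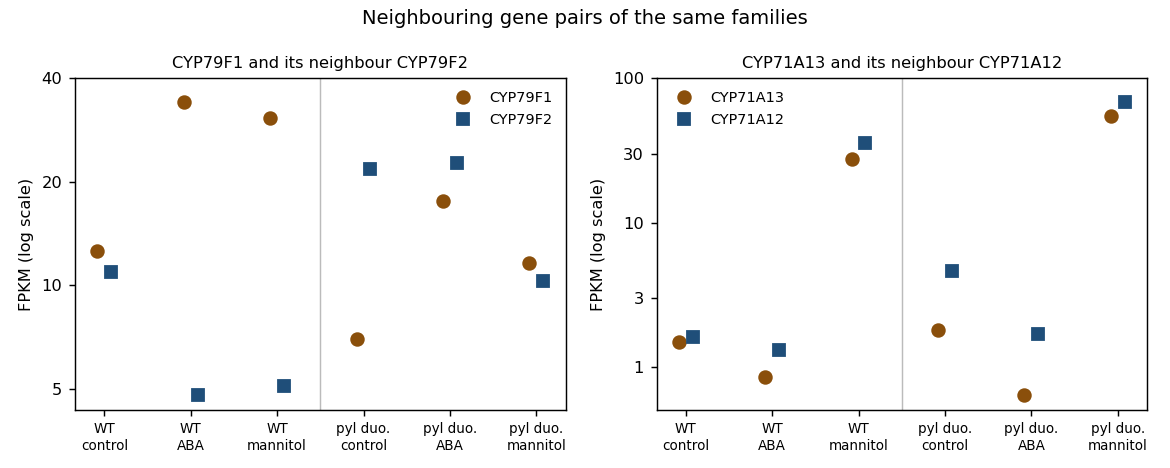
Points give FPKM on a log axis for CYP79F1 and CYP79F2 (left) and for CYP71A13 and CYP71A12 (right) in the 6 groups, wild type (WT) before and pyl duodecuple (pyl duo.) after the vertical line; each point is 1 group value without error. CYP79F1 lies above CYP79F2 in treated wild-type seedlings (34.1 against 4.79 FPKM in ABA) and below it in duodecuple control (6.99 against 21.7 FPKM) and ABA seedlings, whereas CYP71A13 and CYP71A12 are both highest in mannitol.

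CYP79F1 lies at chr1:5608682-5612064 and CYP79F2 at chr1:5605044-5607498, both on the plus strand (TAIR10.1), with 1183 bases between them and 3 coding exons each. The coding sequences are 91.9% identical. The longest run without a mismatch is 100 bases, at chr1:5609966-5610065 in CYP79F1 and chr1:5606398-5606497 in CYP79F2 (RefSeq, 5′ to 3′ on the plus strand). It is shown because reads within it cannot be assigned to 1 gene, and a misassigned share would pull the levels of the pair together or apart.
CYP79F1 and CYP79F2, shared run: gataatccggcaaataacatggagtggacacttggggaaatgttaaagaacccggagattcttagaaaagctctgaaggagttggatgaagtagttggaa
The sequences before the genes are less alike, with 61.4% identity over the aligned part of the 250 bases upstream of each annotated start. They are printed because the levels of the pair diverged although their coding sequences are nearly the same; capitals mark ACGTG.
CYP79F1, chr1:5608432-5608681, plus strand: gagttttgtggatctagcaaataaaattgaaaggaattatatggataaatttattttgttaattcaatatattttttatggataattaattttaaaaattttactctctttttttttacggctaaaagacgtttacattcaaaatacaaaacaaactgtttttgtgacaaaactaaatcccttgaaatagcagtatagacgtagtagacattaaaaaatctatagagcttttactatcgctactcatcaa
CYP79F2, chr1:5604794-5605043, plus strand: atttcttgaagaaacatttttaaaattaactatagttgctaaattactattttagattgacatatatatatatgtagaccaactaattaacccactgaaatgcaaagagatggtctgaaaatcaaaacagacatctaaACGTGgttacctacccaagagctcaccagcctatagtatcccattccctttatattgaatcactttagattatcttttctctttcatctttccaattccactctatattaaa
CYP79F2 held ACGTG 112 bases before its start, in a window length at which 22.9% of genes hold it. CYP79F1 had none in the printed window and 1 at 462 bases before its start, in the stretch agacatagtaatACGTGaaatgttgtgatt (chr1:5608208-5608237). Neither gene had a W-box or CACGTG, the G-box, within 1000 bases. A letter match says nothing of which factor acts there.

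MAM3 (named IMS2 in RefSeq) fell in both treatments in the wild type and was higher in the duodecuple in all 3 media. Its levels were 27.2, 5.52 and 3.90 FPKM in wild-type control, ABA and mannitol seedlings, and 53.4, 57.2 and 23.1 FPKM in the duodecuple. Among the duodecuple groups only the mannitol level was below the wild-type control, and both treated wild-type groups were far below every other group.

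MAM3 fell 4.93-fold in wild-type ABA (log2 ratio -2.30) and 6.99-fold in wild-type mannitol (-2.80), and 2.31-fold in duodecuple mannitol (-1.21), by the authors' calls. In duodecuple ABA its log2 ratio was 0.10 and it was not called. The log2 ratio was 2.40 higher in the duodecuple than in the wild type for ABA and 1.60 higher for mannitol, against medians of 0.29 and 0.00 over all listed genes, untested. For ABA it was the 1 gene of the 4 whose response differed at least 2-fold, as did 26.5% of listed genes, and for mannitol it was 1 of 2 with PAD3, against 25.5%. With 5 FPKM added to each level the mannitol difference was 0.80. Duodecuple seedlings had 1.96-fold more MAM3 than the wild type on control medium, 10.4-fold more on ABA and 5.93-fold more on mannitol. It was the 1 of 4 genes past 2-fold in ABA, against 28.2% of listed genes, and 1 of 3 in mannitol, with PAD3 and CYP79F1, against 25.3%.

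The sum of the root markers moved in a similar way in the wild type (4 of 7 listed, none of them at 0). It was 150.2, 39.7 and 43.9 FPKM in wild-type control, ABA and mannitol seedlings and 118, 105 and 28.4 FPKM in the duodecuple. The lowest marker level was 2.16 FPKM in wild-type control and 3.73 FPKM in wild-type mannitol seedlings. Not every root marker thus fell in wild-type mannitol. The part of root markers in the MAM3 levels was not tested. The ratio of MAM3 to CYP79F2 was 2.49, 1.15 and 0.766 in the wild-type groups and lay between 2.24 and 2.53 in all 3 duodecuple groups.

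MAM3 lies at chr5:7718118-7721866 on the plus strand (TAIR10.1) with 10 coding exons, and its relative MAM1 lies on the same strand, with 11144 bases between the genes. Their coding sequences are 84.2% identical, and the longest shared run is 30 bases. Levels of MAM1 were not analysed here. No W-box, ACGTG core or G-box was found in the 1000 bases before MAM3, which says only that these letters are not in that window.

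Of 10 methionine chain elongation genes MAM3 alone is listed, and the others were not analysed here. The core and side-chain list, which holds CYP79F1 and CYP79F2, has 10 of 16 genes listed, and its counts include CYP79F1. In wild-type ABA 5 were called higher and 2 lower (median log2 ratio 0.93 against -0.31 over all listed genes), and in wild-type mannitol 6 higher and 3 lower (1.05 against -0.20). In the duodecuple 2 were called higher and 0 lower in ABA (0.14 against -0.03), and 0 higher and 2 lower in mannitol (-0.01 against -0.29). Over all listed genes 17.6% were called higher and 27.3% lower in wild-type ABA, 33.1% and 35.3% in wild-type mannitol, 2.49% and 2.79% in duodecuple ABA, and 23.3% and 27.2% in duodecuple mannitol. Among side-chain genes FMO-GS-OX2 was not called in wild-type ABA (0.77) and GSL-OH was not called in wild-type mannitol (0.96). FMO-GS-OX4, an S-oxygenase of the side chain, rose from 41.9 to 132 FPKM in wild-type ABA and to 108 FPKM in wild-type mannitol, and stood at 24.9, 31.9 and 28.2 FPKM in the duodecuple groups, with no call. AOP2, a gene of the side-chain dioxygenase family, rose from 2.77 to 9.06 and 7.66 FPKM in the wild type and stood at 1.77, 1.93 and 1.54 FPKM in the duodecuple, again with no call. These are transcript levels, and whether AOP2 gives a working enzyme in Col-0 was not examined. GSTF11, a glutathione transferase of the core pathway, fell like CYP79F2, from 9.39 to 3.71 and 4.16 FPKM in wild-type ABA and mannitol and from 14.4 to 6.39 FPKM in duodecuple mannitol seedlings.

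Regulators of this branch are listed for 5 of 9 genes. Of the 5, 1 was called in wild-type ABA, 1 in wild-type mannitol, 2 in duodecuple ABA (SDI1 and SDI2, both lower) and 2 in duodecuple mannitol, where 44.9%, 68.4%, 5.28% and 50.5% of listed genes were called. MYB28, the transcription factor that drives aliphatic glucosinolate genes, was at 32.8, 26.3 and 31.7 FPKM in the wild-type groups, without a call, and fell 2.57-fold from 41.8 to 16.3 FPKM in duodecuple mannitol seedlings. SDI1, a sulfur-deficiency gene known as a repressor of aliphatic glucosinolate synthesis, stood at 11.1, 5.22 and 10.97 FPKM in the wild type and at 116, 13.8 and 94.3 FPKM in the duodecuple. It was called lower in ABA in both genotypes, 2.13-fold and 8.39-fold.

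**Figure D4:**
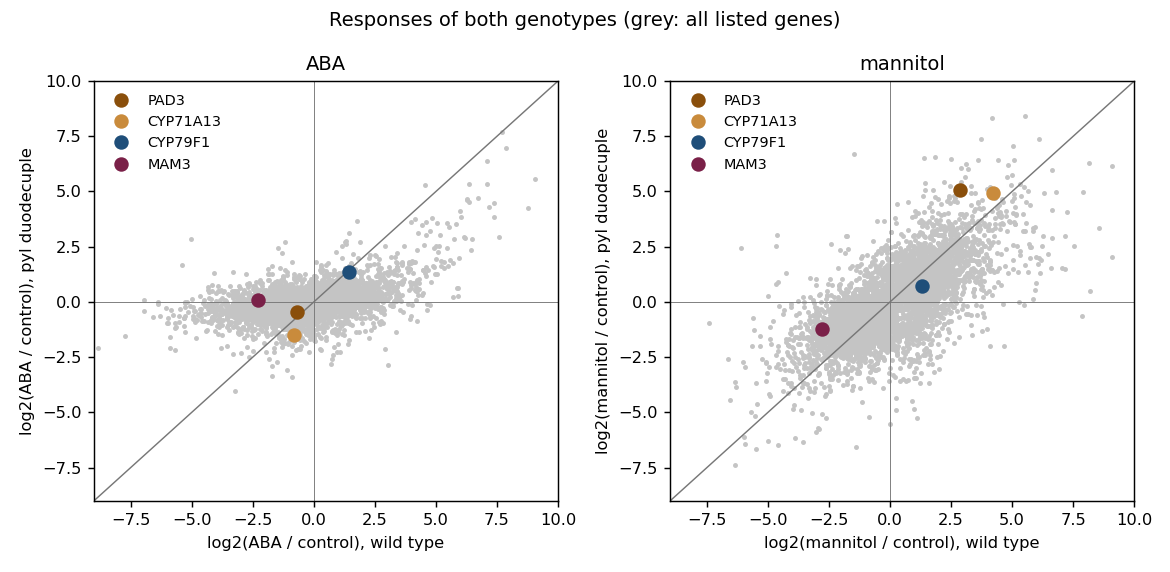
Each grey point is a listed gene, with its log2 ratio of treated over control FPKM in the wild type on the horizontal axis and in the pyl duodecuple on the vertical axis, for ABA (left) and mannitol (right); the diagonal marks equal ratios. CYP79F1 lies near the diagonal for ABA (1.44 and 1.34), MAM3 lies above it in both panels, and PAD3 lies above it for mannitol (2.87 and 5.07).

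Indole glucosinolate synthesis, which shares its aldoxime with camalexin, has 11 of 18 genes listed. In wild-type ABA 1 was called higher and 7 lower (17.6% and 27.3% of all listed genes), with a median log2 ratio of -1.48 against -0.31 over all listed genes. In duodecuple ABA 0 were called higher and 2 lower (2.49% and 2.79%), with a median of -0.24 against -0.03. Wild-type mannitol had 5 called higher and 1 lower (33.1% and 35.3%), with 0.57 against -0.20, and duodecuple mannitol 6 higher and 1 lower (23.3% and 27.2%), with 1.01 against -0.29. IGMT1, an indole glucosinolate methyltransferase, fell 38.8-fold in wild-type ABA from 46.9 to 1.21 FPKM. CYP81F2, which hydroxylates the indole ring, fell 7.83-fold there from 6.90 to 0.881 FPKM, whereas CYP81F1, another hydroxylase of the same subfamily, rose 3.11-fold from 5.14 to 16.0 FPKM. The 2 called lower in duodecuple ABA were IGMT2, 2.76-fold, and CYP81F2, 2.36-fold from 12.8 to 5.45 FPKM. IGMT1 was not called there, at 31.1 and 26.4 FPKM. In duodecuple mannitol CYP81F2 was called higher, 2.02-fold.

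The genes whose levels over the 6 groups were most like each of the 4 were sought among 5002 listed genes with at least 5 FPKM in some group, by the root mean square difference of centred log2(FPKM + 1). Nearest to PAD3 was CYP71A13 (0.381, Pearson r 0.98), followed by ABCG40, a membrane transporter (0.409, r 0.99), and TPS04, a terpene synthase (0.410). Nearest to CYP71A13 were PXMT1, a methyltransferase (0.289), and CYP71A12 (0.305), then PAD3. CYP79F1 was most like AT1G61890, a MATE efflux family gene (0.169), IVD, an enzyme of branched-chain amino acid breakdown (0.196), and AT5G61820 (0.202). MAM3 was most like AT4G11290, a peroxidase gene (0.301), AT4G15680 (0.316) and AT4G34770 (0.320). Between the glucosinolate genes CYP79F1 and MAM3 r was -0.83, and between PAD3 and CYP79F1 it was 0.10. These values describe 6 group levels that share libraries within a group, and they carry no test. With 0.1 FPKM in place of 1, 1 of the 3 genes named for PAD3, 2 of 3 for CYP71A13, 3 of 3 for CYP79F1 and 0 of 3 for MAM3 were again among the 3 nearest. CYP71A13 was no longer among those of PAD3, and EXPB1, a cell wall expansin, was nearest to MAM3 (0.159).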

How the data were processed

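The submitters' processing notes name TopHat, Cufflinks, Cuffdiff and the TAIR10 build, with versions and settings not given in the sources used here. The authors deposited 1 value per gene and group, made from 3 libraries, read here as FPKM, the unit of Cufflinks output. For treated against control the authors deposited log2 ratios and yes or no calls whose rule is not given in the sources used here. Recomputed ratios without a pseudocount differed from the deposited ones by at most 4.68e-05. No column holds a single library, so the planned models could not be fitted, no p-value, error or interval was computed, and any count adjusted over a list alone could not be made. The precision of each value is unknown. Labels number the 3 samples of a group r1 to r3.

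The 4 members and the 9 pathway lists (103 genes, 58 listed) were chosen with earlier results of these data known. Named genes are the 4 members, from each list up to 4 called genes per comparison with the largest absolute log2 ratio reaching 5 FPKM, the family neighbours, and the 3 most alike genes per member. BGLU28, EXPB1, AT5G22930, GGP1, AT2G30766, PSBP-2, GSTF9 and MC8 were added after their values were seen. Symbols came from a RefSeq gene table of TAIR10.1 (6726 of 6740 identifiers matched), and sequences from the RefSeq genome of that build, whose nuclear chromosome sequences were taken as those of TAIR10. The code for the fold limit and for ranking the most alike genes was tested on simulated data, and the motif code was not. Python 3.11.15, numpy 2.4.6, pandas 2.3.3, matplotlib 3.10.9 and biopython 1.88 were used.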

Additional observations from a re-analysis of the deposited data

How the results depend on the processing

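Pseudocounts of 0.1, 1 and 5 FPKM were tried on 44 ratios and response differences of the 4 genes. Of 132 values 126 stayed on the same side of 2-fold, 0 changed sign and 6 dropped inside it. These were PAD3 in duodecuple over wild-type control (log2 -0.99 with 1 FPKM and -0.69 with 5), CYP71A13 in duodecuple ABA (-0.77 and -0.27), and, with 5 FPKM, CYP79F1 in duodecuple ABA (0.92) and the mannitol response difference of MAM3 (0.80). A pseudocount shrinks ratios of low levels by construction. Adding a 4-fold limit took the called members from 2 to 1 in wild-type ABA and from 2 to 0 in duodecuple ABA, and those past the limit between genotypes from 1 to 0 in control and from 3 to 1 in mannitol, and from 2 to 1 for the mannitol response difference. In duodecuple ABA, 1 remained with a 5 FPKM minimum added to the call and 1 with a 2-fold and 5 FPKM rule in place of it. Over all lists, 4-fold took pathway genes called higher from 12 to 2 and those lower from 19 to 7 in wild-type ABA, from 32 to 10 and 11 to 1 in wild-type mannitol, from 4 to 2 and 10 to 1 in duodecuple ABA, and from 26 to 7 and 9 to 2 in duodecuple mannitol. With 5 FPKM, by the call or by the 2-fold rule, those lower were 11 in wild-type ABA and 7 in wild-type mannitol. Counts within single lists moved beyond 1.5 times under 51 of 216 alternatives. No paired analysis was possible because the table holds group values only, and for the same reason leaving out each replicate was not run. Depth is unknown, so no detection limit can be given.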

Other observations

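Genes for glucosinolate breakdown and transport, 13 of 21 listed, were called 4 higher and 6 lower in wild-type ABA, 6 higher and 5 lower in wild-type mannitol, 2 higher and 2 lower in duodecuple ABA, and 4 higher and 4 lower in duodecuple mannitol. Of all listed genes 44.9%, 68.4%, 5.28% and 50.5% were called in these comparisons. The list medians of the log2 ratio were -0.41, 0.27, -0.17 and -0.29, against -0.31, -0.20, -0.03 and -0.29 over all listed genes. NIT2, a nitrilase that acts on breakdown nitriles, rose from 20.1 to 214 FPKM in wild-type ABA and to 206 FPKM in wild-type mannitol, and from 15.6 to 46.8 and 88.0 FPKM in the duodecuple. BGLU30, a beta-glucosidase, rose from 1.21 to 74.2 and 81.8 FPKM in the wild type and from 5.03 to 20.2 and 19.7 FPKM in the duodecuple. GTR1, a glucosinolate importer, rose 3.18-fold in wild-type and 2.04-fold in duodecuple mannitol. NSP4, a nitrile specifier protein gene, fell 5.55-fold in wild-type ABA and 4.84-fold in duodecuple mannitol. Of 8 genes for sulfate activation and glutathione 2 are listed, APK1 and APR1, and both rose in wild-type mannitol, 2.42-fold and 2.11-fold.

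Some genes of these lists differed between the genotypes on every medium, untested. GSL-OH, the dioxygenase that hydroxylates an alkenyl glucosinolate side chain, stood at 341, 1269 and 662 FPKM in wild-type control, ABA and mannitol seedlings and at 6.29, 41.3 and 11.3 FPKM in the duodecuple, 54.3-fold lower on control medium. It was called higher in ABA in both genotypes, 3.72-fold and 6.57-fold. Whether its alkenyl substrate is made in these seedlings was not examined. BGLU28, a beta-glucosidase gene known to respond to sulfur deficiency, was at 2.40, 1.16 and 0.965 FPKM in the wild type and at 27.7, 20.5 and 22.7 FPKM in the duodecuple, 11.5-fold higher on control medium. SDI1 was 10.4-fold higher there. The duodecuple over wild-type log2 ratios on control medium of 6 listed genes among the 20 nearest protein-coding neighbours of MAM3 ranged from -0.63 to 0.64, against 0.97 for MAM3 itself. On ABA and mannitol the neighbour AT5G22930 had ratios of 4.15 and 2.39, against 3.37 and 2.57 for MAM3. The other listed neighbours had ratios from 0.39 to 0.75 on ABA. On mannitol theirs were -1.17, 0.20, 0.47 and 1.65, and the remaining neighbour, at 0 FPKM in duodecuple mannitol, had no finite ratio. On control medium the listed neighbours of PAD3 ranged from -0.80 to 0.19 and those of CYP71A13 from -1.85 to 1.51. Beside CYP71A13, AT2G30766 had ratios of 1.45, 3.29 and 6.32 on control medium, ABA and mannitol, and PSBP-2 had -1.85, -3.06 and -2.43. GSTF9, another neighbour of CYP71A13, had 0.01, -0.32 and -0.37. Beside CYP79F1, MC8 had 2.72 on ABA, where its wild-type level was 0.259 FPKM, and 3.15 on mannitol.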
